A study of Mus musculus with 43 samples.

Results

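Krt73, Kndc1, Dnah17, Slc5a4a, Tm4sf5, Gpr179 and Slc10a4 are 7 of the 46983 genes in an RNA-seq table of mouse germ cell cultures. They were chosen from the measured values, because their change after 24 h of retinoic acid (RA) was far larger in Stra8-knockout (KO) than in wild-type (WT) cultures. The 24 h levels and changes are therefore given below as a description, with no test. The tests compare untreated cultures and cultures at 4 h and 8 h, whose levels the choice did not use. Their error, however, was estimated over all groups, those at 24 h included. All 7 genes passed the filter on low values.

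RA, made from vitamin A, binds nuclear receptors of the RAR and RXR families, which sit on DNA as pairs and switch target genes on when RA is bound. In the testis RA moves undifferentiated spermatogonia into differentiation and later into meiosis. Stra8 is one of its classic targets in germ cells and encodes a DNA-binding protein needed for meiotic entry. The 7 genes are best known from other tissues, as a hair keratin, a sperm tail motor, a surface membrane protein, a neuronal Ras activator, a retinal receptor and a pair of membrane transport proteins.

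The cultures were started from THY1+ testis cells of WT or Stra8-KO mice and grown on STO cells, a mouse fibroblast feeder line, in serum-free medium with GDNF at 20 ng/ml, GFRA1 at 150 ng/ml and FGF2 at 1 ng/ml. Both genotypes were between passages 3 and 12. In each genotype, 3 replicates (WT17, WT23 and WT25, or KO12, KO20 and KO21, here called lines) were left untreated (0 h), or received DMSO at 0.01% or RA for 4, 8 or 24 h. The labels print the RA concentration as 0.01 M and do not say whether this is a stock. Every KO library comes from cultures that lack Stra8 function by their label, and each of the 14 groups holds 3 libraries. The labels do not state whether the lines came from separate mice, so p-values measure the spread between these lines within groups, pooled over all groups. In fits with the line as a block, each line's mean is taken out first, and the p-values measure the spread that remains. Levels below are the authors' deposited log2 values, on which 1 unit is a doubling and low genes are drawn towards their own mean. Sequencing depth cannot be read from them.

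Stra8 itself stood at 6.27 to 6.78 in the 11 KO libraries without RA that were used, at 8.51 to 9.10 in the KO libraries at 8 h of RA and at 12.75 to 13.06 in the WT libraries at 8 h of RA. Its RA change at 8 h was lower in KO by 3.22 log2 units (SE 0.32, limma adjusted p = 1.32e-06, and 0.372 with all 42 libraries), and the values do not show which exons the remaining reads came from. The 20 marker genes of undifferentiated spermatogonia were all above the filter, with a summed log2 level of 15.82 to 16.2 over the 12 libraries at 8 h. The 15 fibroblast markers were also above it, at 14.7 to 15.65, so the libraries hold RNA of both kinds of cell. In such mixed samples a change in the share of a cell type and a change in RNA per cell cannot be told apart. The DMSO 4 h libraries of WT23, WT25 and KO20 were treated as doubtful and left out, which leaves 39 libraries. Over 9521 genes the gene-by-gene differences between the library labelled KO20 DMSO 4 h and the KO20 library with RA for 24 h had an SD of 0.0465 log2 units, and the next closest of 861 pairs had 0.111. All 7 genes stand near their 24 h RA level in it, and the calls of the 7 genes that change when all 42 libraries are fitted are given below. Because of these libraries, RA at 4 h was compared with untreated cultures. Those received no DMSO and stand at 0 h, so effects of vehicle, handling and time cannot be told apart from that of RA at 4 h.

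**Figure D1:**
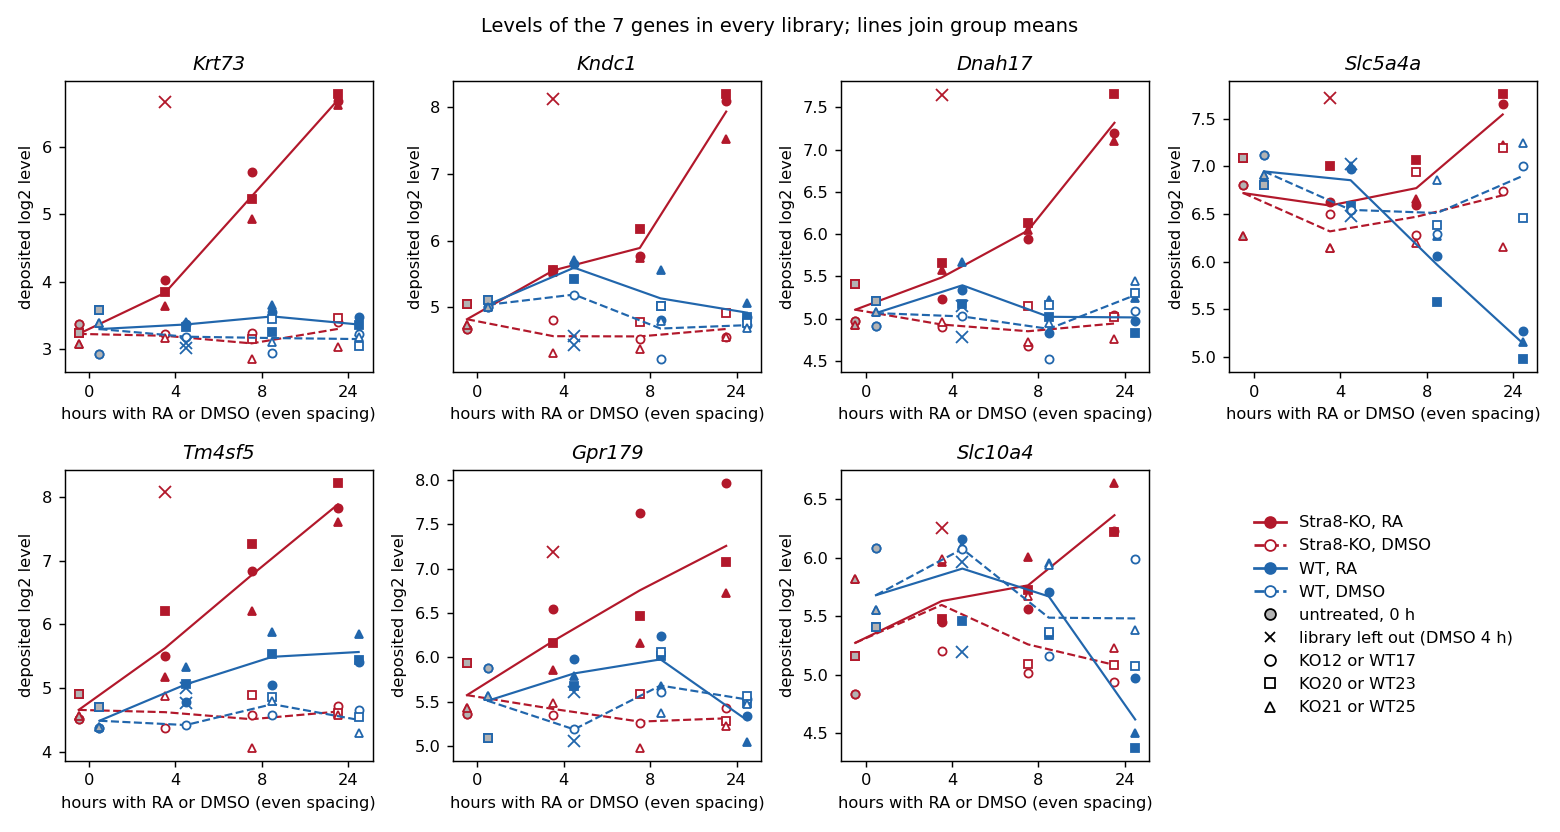
Deposited log2 level of each gene (vertical axis) at 0, 4, 8 and 24 h (horizontal axis, evenly spaced) in every library, with KO in red and WT in blue, RA filled and DMSO open, untreated cultures grey, and crosses for the libraries left out. Lines join group means. The red filled symbols rise between 4 h and 24 h in all panels, while the blue filled symbols of Slc5a4a and Slc10a4 drop to 4.98 to 5.27 and 4.37 to 4.97 at 24 h.

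At 24 h every one of the 7 genes was higher with RA than with DMSO in each of the 3 KO lines, by a mean of 0.85 (Slc5a4a) to 3.41 (Krt73) log2 units. In WT the 24 h changes differed among the 7. Krt73 and Kndc1 changed by 0.22 and 0.19, Dnah17 and Gpr179 by -0.26 and -0.23, Tm4sf5 was higher by 1.07, and Slc10a4 and Slc5a4a were lower by -0.87 and -1.77. The excess in KO is thus a rise in KO next to nearly level values in WT for 4 genes, a larger rise for Tm4sf5, and a rise in KO next to a drop in WT for Slc5a4a and Slc10a4. A name such as RA-induced genes would leave out the drop of these last 2 genes in WT. Whether Stra8 holds any of the 7 in check was not tested. By the size of the difference KO minus WT, the 7 genes held ranks 1, 2, 3, 4, 10, 11 and 12 of the 16268 genes tested. The difference of the lowest of them, Slc10a4, was 2.15, and the 5 genes that lie between them in rank (Dtx1, Gdap1l1, Rph3a, Oas3 and Hsd17b6) had 2.22 to 2.47. Bco1, the next gene below, had 2.12.

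At 8 h, in libraries that the choice did not use, 5 of the 7 genes rose with RA in KO and none passed the test in WT. Krt73 rose 4.55-fold, Tm4sf5 4.79-fold, Gpr179 2.79-fold, Kndc1 2.51-fold and Dnah17 2.28-fold in KO (limma, adjusted p from 1.55e-11 to 0.000795). These folds are of the deposited levels, in which low genes are drawn towards their mean. The authors' own log2 changes were larger for all 5 genes, at 2.90 against 2.19 here for Krt73 and 2.39 against 2.26 for Tm4sf5. With all 42 libraries in the fit 3 of these 5 were called, without Kndc1 (0.146) and Dnah17 (0.0645). Over all tested genes 5.3% were called higher with RA in KO at 8 h, and in WT 5.32% were called higher and 6.71% lower. In WT, 2 of the 7 genes had an unadjusted limma p under 0.05, as did 3928 of the 16268 genes tested. The fit with the line as a block called Kndc1 and Tm4sf5 higher (9.44% of all genes) and Slc5a4a lower (11.7%). Tm4sf5 came closest without the block, with a change of 0.74 (SE 0.25, adjusted p = 0.0524).

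The difference between the genotypes at 8 h was itself called for 3 of the 7 genes, Krt73, Tm4sf5 and Dnah17, against 0.443% of all genes called higher in KO (72 of 16268). The difference was above 0 in all 7, and 6 had an unadjusted p under 0.05, as did 1706 of all genes. With the line as a block, which uses the fact that the same 3 lines recur in all groups of a genotype, 5 of 7 were called, adding Kndc1 and Slc5a4a, against 3.15% of all genes. With all 42 libraries in the fit none of the 7 was called (Krt73 adjusted p = 0.677). The 3 added DMSO 4 h libraries are not part of the 8 h comparison, so its size stayed the same and only the error grew. For Krt73 the SE went from 0.23 to 0.62. The fit over the 12 libraries at 8 h alone, chosen after the data were seen, called Krt73 (adjusted p = 0.0253) but neither Tm4sf5 (0.256) nor Dnah17 (0.191). Leaving out 1 line at a time, Krt73 stayed called in 6 of 6 fits (adjusted p 0.000289 to 0.00329), Dnah17 in 1 of 6, the one without KO20 (0.0418 to 0.309), and Tm4sf5 in 0 of 6 (0.0502 to 0.26).

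**Figure D2:**
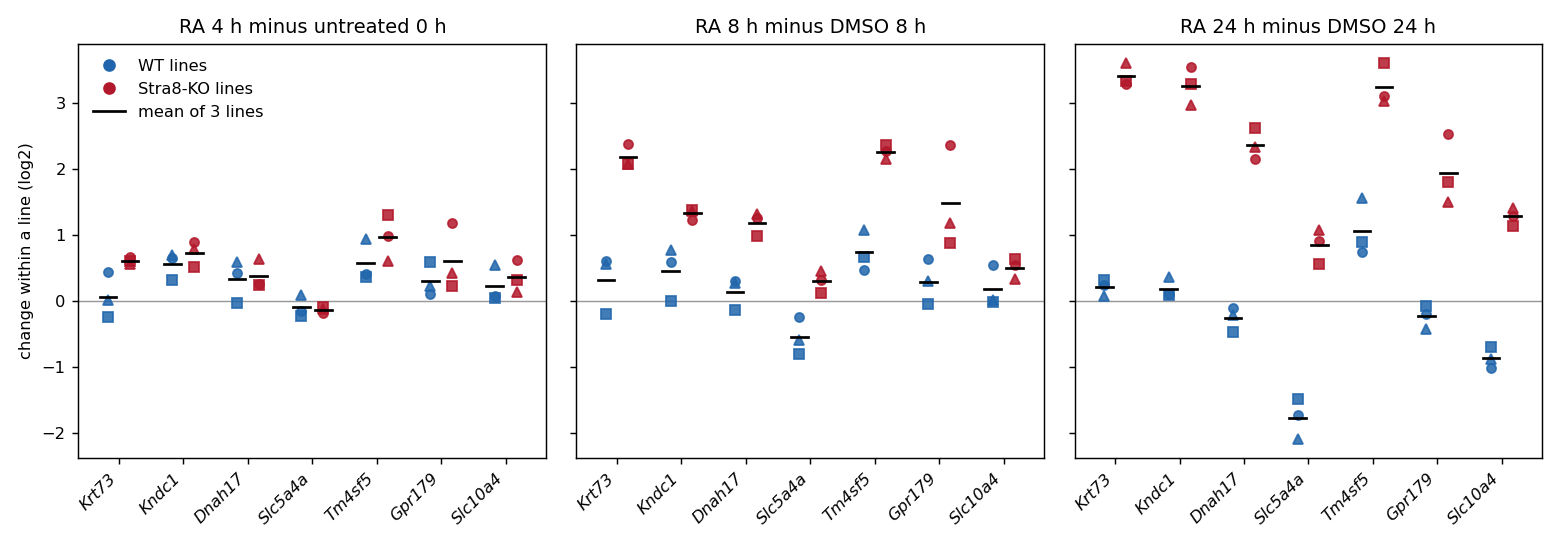
Change with RA within each line (log2, vertical axis) for the 7 genes at 4 h against untreated cultures and at 8 h and 24 h against DMSO, with WT lines in blue, KO lines in red and black bars for the mean of 3 lines. At 8 h the 3 KO lines lie above the 3 WT lines for every gene but Slc10a4, and at 4 h for Krt73 alone.

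Within lines, the 8 h changes of the 3 KO lines all lay above those of the 3 WT lines for 6 of the 7 genes, where 16% of all tested genes show such an order. Slc10a4 was the exception, with WT17 at 0.55 and KO21 at 0.33. At 4 h this held for 1 of the 7, Krt73, against 6.41% of all genes. At 24 h, where the genes were chosen for it, it held for all 7, against 25.3% of all genes.

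**Figure D3:**
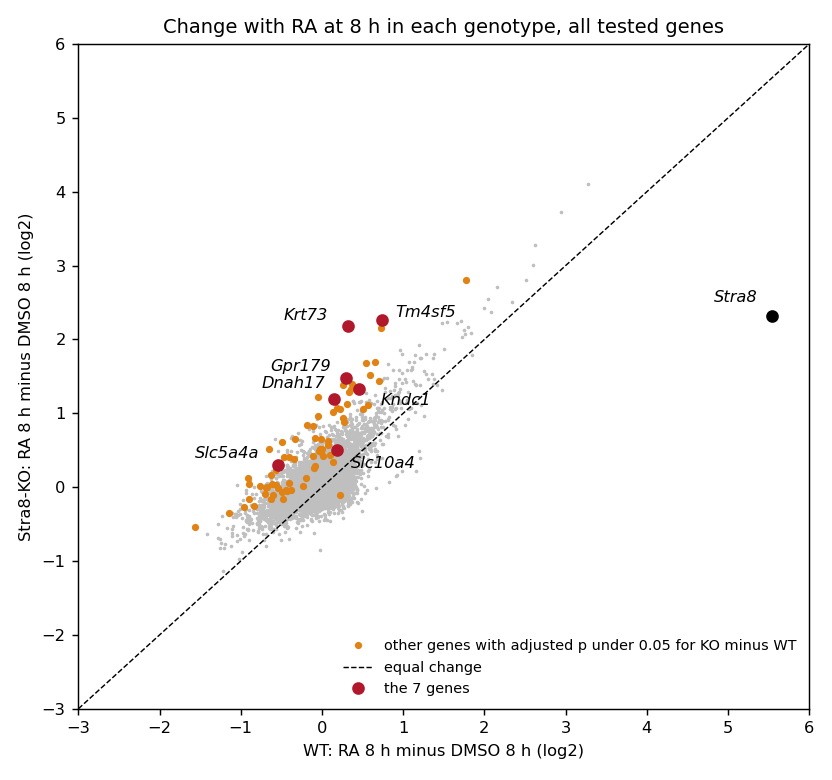
Change with RA at 8 h in WT (horizontal axis, log2) and in KO (vertical axis, log2) for the 16268 tested genes (grey), with the 7 genes in red, Stra8 in black and the other genes called for a genotype difference in orange. The 7 genes lie above the dashed line of equal change, between 0.32 (Slc10a4) and 1.86 (Krt73) above it.

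Krt73, on chromosome 15 (101793308 to 101802343, minus strand, GRCm38), encodes a type II keratin of the inner root sheath of the hair follicle. It was the lowest of the 7 before RA, reaching the filter level of 3.32 in 13 of the 30 libraries outside the KO cultures with RA. At 8 h of RA the KO lines stood at 5.63 (KO12), 5.23 (KO20) and 4.94 (KO21), and with DMSO at 3.24, 3.15 and 2.85. The WT lines stood at 3.55 (WT17), 3.25 (WT23) and 3.65 (WT25) with RA and at 2.94, 3.44 and 3.09 with DMSO. All KO libraries with RA were above every other library at 8 h, while the WT groups overlapped. The 8 h change was 2.19 ± 0.16 in KO and 0.32 ± 0.16 in WT (3 lines each), a difference of 1.86 ± 0.23 (limma adjusted p = 4.56e-05). Here and below ± gives the SE of the fit. Its spread is shared by all groups, so it is the same in KO and WT and is not the spread of the 3 changes. At 24 h the KO lines with RA had reached 6.69, 6.79 and 6.63, against 3.03 to 3.46 with DMSO. WT at 24 h stood at 3.25 to 3.47 with RA and at 3.04 to 3.22 with DMSO. The KO level with RA was higher at each later time, and the WT level stayed close to that of its controls.

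Dnah17, on chromosome 11 (118021723 to 118129219, minus strand), encodes an axonemal outer-arm dynein heavy chain, a motor of the sperm tail. With RA at 8 h the KO lines stood at 5.95, 6.13 and 6.05 (KO12, KO20, KO21) and with DMSO at 4.68, 5.15 and 4.72. The WT lines stood at 4.82, 5.02 and 5.22 (WT17, WT23, WT25) with RA and at 4.52, 5.17 and 4.95 with DMSO. The KO groups did not overlap and the WT groups did. The 8 h change was 1.19 ± 0.18 in KO and 0.14 ± 0.18 in WT, a difference of 1.05 ± 0.25 (limma adjusted p = 0.0451). At 24 h the KO lines with RA stood at 7.19, 7.65 and 7.10, above the 4.76 to 5.04 of their DMSO controls. WT with RA stood at 4.83 to 5.24 at that time and its controls at 5.09 to 5.45. The gene overlaps the abundant Pgs1 and the antisense gene Gm11738 on the other strand. Pgs1 changed by 0.06 in KO at 8 h (limma adjusted p = 0.493) and fell by 0.15 in WT (0.0112), a difference of 0.21 (0.0861) with the same sign as that of Dnah17. Gm11738 did not pass the filter, and 1.29% of the 50-base stretches of Dnah17 transcripts occur in other genes' transcripts.

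Tm4sf5, on chromosome 11 (70505244 to 70511178, plus strand), encodes a membrane protein of the L6 family. In KO at 8 h it stood at 6.85, 7.26 and 6.22 (KO12, KO20, KO21) with RA and at 4.57, 4.90 and 4.07 with DMSO. In WT it stood at 5.05, 5.54 and 5.89 (WT17, WT23, WT25) with RA and at 4.58, 4.86 and 4.81 with DMSO. RA libraries were above DMSO libraries in both genotypes, with a wider gap in KO. The 8 h change was 2.26 ± 0.25 in KO and 0.74 ± 0.25 in WT, a difference of 1.52 ± 0.36 (limma adjusted p = 0.0465). With the line as a block the WT rise was called too (adjusted p = 0.00447). At 24 h the KO lines with RA stood at 7.83, 8.22 and 7.60, and with DMSO at 4.57 to 4.72. WT stood at 5.41, 5.44 and 5.85 with RA and 4.29 to 4.66 with DMSO. WT with RA therefore stood above its controls without reaching the KO levels.

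The sequence upstream of these 3 genes is shown because their 8 h genotype difference was called in the fit over 39 libraries. Each run lists the bases before the start site in RefSeq (GRCm38.p6), 5′ to 3′ on the gene's strand and ending before any base that the deposited table counts to the gene. Capitals mark TATAAA, the TATA box, and CNCCTCAG, a motif reported at promoters bound by STRA8.
Krt73, chr15:101802361-101802610, minus strand: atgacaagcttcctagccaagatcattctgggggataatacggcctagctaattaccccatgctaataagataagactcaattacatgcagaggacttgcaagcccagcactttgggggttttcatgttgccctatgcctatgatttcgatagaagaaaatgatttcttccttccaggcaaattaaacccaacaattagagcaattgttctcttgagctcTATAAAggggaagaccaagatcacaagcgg
Dnah17, chr11:118129220-118129469, minus strand: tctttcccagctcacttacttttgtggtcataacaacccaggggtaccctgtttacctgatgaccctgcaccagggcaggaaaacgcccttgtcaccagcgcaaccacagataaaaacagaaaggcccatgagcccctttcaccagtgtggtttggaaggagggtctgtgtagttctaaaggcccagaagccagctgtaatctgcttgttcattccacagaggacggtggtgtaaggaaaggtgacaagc
Tm4sf5, chr11:70505024-70505243, plus strand: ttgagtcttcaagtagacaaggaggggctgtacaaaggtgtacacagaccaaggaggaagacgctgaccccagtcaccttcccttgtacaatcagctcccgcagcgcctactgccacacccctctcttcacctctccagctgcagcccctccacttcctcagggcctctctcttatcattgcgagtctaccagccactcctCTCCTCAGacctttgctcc

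Promoters were found for 7 of the 7 genes, and motifs were searched on both strands in the 250 bases before the start site. A TATAAA stands at positions -30 to -25 of Krt73 and, on the other strand, at -188 to -183 of Slc5a4a, and 12.4% of all 32851 mouse promoters hold one. CNCCTCAG was found in Tm4sf5 alone, at -49 to -42, and 6.42% of all promoters hold it. The direct repeats bound by RAR and RXR (DR1, DR2 and DR5) were found in none of the 7, and 0.164%, 0.174% and 0.0883% of all promoters hold them. The receptor motif AGGTCA was in none of the 7 and in 14% of all promoters. Its forms GGGTCA and GGTTCA were searched only as parts of the direct repeats and not alone. AGTTCA, another form that overlaps no other motif here, was in Kndc1 and Slc10a4 and in 11.8% of all promoters. These are letter matches in a short window and no measure of binding.

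Kndc1, on chromosome 7 (139894696 to 139941537, plus strand), encodes a guanine nucleotide exchange factor that activates Ras in neuronal dendrites. With RA at 8 h the KO lines stood at 5.76, 6.17 and 5.73 (KO12, KO20, KO21) and with DMSO at 4.53, 4.78 and 4.37. The WT lines stood at 4.81, 5.02 and 5.56 (WT17, WT23, WT25) with RA and 4.22, 5.02 and 4.79 with DMSO. The KO groups were apart, and in WT line WT23 did not move. The 8 h change was 1.33 ± 0.19 in KO and 0.45 ± 0.19 in WT, and the difference of 0.88 ± 0.27 did not pass (limma adjusted p = 0.166), although it did with the line as a block (0.0157). The block also called the WT rise (0.0289). At 24 h KO with RA stood at 8.09, 8.20 and 7.52 against 4.55 to 4.91 with DMSO, while WT with RA stood at 4.84 to 5.06 against 4.69 to 4.76. At 4 h both genotypes had stood at nearly the same level with RA, at 5.53 to 5.56 in KO and 5.42 to 5.70 in WT, so their courses part after 4 h.

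Gpr179, on chromosome 11 (97332109 to 97352077, minus strand), encodes an orphan class C receptor that retinal ON bipolar cells need for their light response. Its spread between KO lines was the widest of the 7 at 8 h of RA, with KO12 at 7.63, KO20 at 6.47 and KO21 at 6.17, against 5.25, 5.59 and 4.98 with DMSO. In WT it stood at 6.24, 6.01 and 5.68 with RA and at 5.61, 6.06 and 5.37 with DMSO. KO12 stood apart and the WT groups overlapped. The 8 h change was 1.48 ± 0.29 in KO (limma adjusted p = 0.000795) and 0.30 ± 0.29 in WT, and the difference of 1.19 ± 0.41 did not pass (0.249). Without KO12 the KO change was 1.03 and stayed called (0.0154). At 24 h KO with RA stood at 7.97, 7.08 and 6.72, again highest in KO12, and at 5.22 to 5.43 with DMSO. WT at 24 h stood at 5.05 to 5.49 with RA and at 5.47 to 5.56 with DMSO.

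Slc5a4a, on chromosome 10 (76147451 to 76189265, plus strand), encodes a member of the sodium/glucose cotransporter family related to the glucose sensor SGLT3. In KO at 8 h it stood at 6.59, 7.07 and 6.65 (KO12, KO20, KO21) with RA and 6.28, 6.95 and 6.19 with DMSO. In WT at 8 h it stood at 6.05, 5.58 and 6.27 (WT17, WT23, WT25) with RA and 6.29, 6.38 and 6.86 with DMSO. Each KO line was a little higher and each WT line lower with RA, with 8 h changes of 0.30 ± 0.27 in KO and -0.54 ± 0.27 in WT. The difference of 0.84 ± 0.38 did not pass (limma adjusted p = 0.411) but did with the line as a block (0.00691), which also called the WT drop (0.00268). At 24 h WT with RA stood at 5.27, 4.98 and 5.16, below every other library of the table used here, and its controls at 7.002, 6.46 and 7.25. KO with RA stood at 7.66, 7.76 and 7.23 and its controls at 6.74, 7.19 and 6.15, so the KO groups did not overlap, though by a narrow margin.

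Slc10a4, on chromosome 5 (73006883 to 73012955, plus strand), encodes an orphan relative of the bile acid transporters that lies on synaptic vesicles. At 8 h it showed the smallest genotype difference of the 7, 0.32 ± 0.39 (limma adjusted p = 0.871). KO with RA stood at 5.56, 5.72 and 6.004 against 5.01, 5.09 and 5.67 with DMSO, and WT at 5.71, 5.34 and 5.96 against 5.16, 5.36 and 5.94. The groups overlapped in both genotypes, and the WT change was 0.18 ± 0.28. The KO change of 0.51 ± 0.28 passed with the line as a block alone (adjusted p = 0.0473, against 0.405 without it, and 8.07% of all genes called higher with it). At 24 h KO with RA stood at 6.23, 6.22 and 6.64 and WT with RA at 4.97, 4.37 and 4.501, with no overlap between them or with the DMSO controls of their own genotype (4.94 to 5.23 in KO and 5.07 to 5.99 in WT). Of the 50-base stretches of its transcripts, 23.7% also occur in the predicted gene Gm5868, which did not pass the filter. This share was the largest of the 7, so by this measure alone its counts are less certain than those of the other 6.

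Before RA the 7 genes were alike in both genotypes within the error. None of 7 differed between untreated KO and WT (limma, differences of -0.41 to 0.17, lowest adjusted p 0.914, none with an unadjusted p under 0.05), where 0.0123% of all genes were called and 967 genes had an unadjusted p under 0.05. The largest, Slc10a4, stood at 4.83, 5.16 and 5.82 in untreated KO and at 6.08, 5.41 and 5.55 in WT, which overlap.

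At 4 h of RA, 3 of the 7 genes rose in KO against untreated cultures (limma, 10.5% of all genes called higher). These were Tm4sf5 by 0.97 ± 0.25 (adjusted p = 0.00718), Kndc1 by 0.73 ± 0.19 (0.0065) and Krt73 by 0.61 ± 0.16 (0.00865). In WT, 1 of 7 rose, Kndc1 by 0.56 ± 0.19 (adjusted p = 0.0328), where 11.9% of all genes were called higher. With the line as a block Dnah17 was called in both genotypes (0.0225 in KO and 0.045 in WT) and Tm4sf5 in WT (0.0192), where it called 16.1% of all genes higher in KO and 17.2% in WT. Without KO12 none of the 3 KO calls held (0.0554 to 0.0877), and without KO20 that of Krt73 did not (0.0884). None of the 3 held with all 42 libraries either (0.224 to 0.448). The WT call of Kndc1 was lost without WT17 (0.13) or WT25 (0.186), with all 42 libraries (0.513) and with no filter on low values (0.0587). With DMSO 4 h as the control, which keeps 1 WT library, Kndc1 changed by 0.40 in WT. In KO, Kndc1 and Tm4sf5 then changed by 0.99 and 1.01.

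The genotype difference at 4 h was called for none of the 7 (limma, adjusted p = 1 for each). Krt73 had the largest, 0.54 ± 0.23, and was the 1 gene with an unadjusted p under 0.05 (0.0263). The block called none of the 7 either. Over all genes 0 were called higher in KO and 1 lower, 0.00615% of those tested, and 299 had an unadjusted p under 0.05. With DMSO 4 h as the control the Krt73 rise in KO was 0.64 (adjusted p = 0.055). With all DMSO 4 h libraries, the one labelled KO20 DMSO 4 h included, the KO changes of Krt73, Kndc1 and Tm4sf5 turned to -0.52, -0.20 and -0.14.

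Across the 39 libraries the 7 genes did not follow a single course. The Pearson correlation of a gene with the mean of the other 6 (each standardized) was 0.94 for Dnah17, 0.94 for Kndc1, 0.92 for Krt73, 0.82 for Tm4sf5 and 0.82 for Gpr179, but 0.56 for Slc10a4 and 0.52 for Slc5a4a, the 2 genes that drop in WT at 24 h. Part of this is the choice itself, since the libraries share the 24 h KO cultures. The 6 named genes whose course was most like the mean of the 7 were Rph3a, Ntrk2, Crtc3, Hsd17b6, Plekha4 and Cbs, with r from 0.92 to 0.93 over 39 libraries. These libraries include those at 8 h, so the 8 h values of the 6 genes are no independent result. At 8 h the genotype difference of 2 of them was called, Cbs (1.14, limma adjusted p = 0.0127) and Hsd17b6 (1.02, 0.0127). Cbs makes cystathionine from homocysteine, and Ntrk2 is the receptor of the growth factor BDNF. The other 4 had differences of 0.51 to 0.63 at 8 h, none of them called.

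Other genes listed as responding to RA were counted at 8 h. The list of 29 was drawn up with earlier results of these data known, so its counts are no independent result. Of its 26 tested genes, 19 rose in KO and 14 in WT (limma), with medians of 0.92 and 0.61 against -0.01 and 0.00 over all genes. Cyp26a1, which degrades RA, rose by 3.72 in KO and 2.94 in WT, and Kit, the receptor that marks differentiating spermatogonia, by 3.005 and 2.60. The genotype difference was called for 2 of 26, Bco1, which cleaves beta-carotene (1.03, adjusted p = 0.015), and the receptor gene Rarg (0.54, 0.018), and for 0 of 26 with all 42 libraries. The median difference of the list was 0.35, against 0.01 over all genes. Of the 3 genes with a called difference, the WT changes of Krt73 (0.32) and Dnah17 (0.14) lay below the list's WT median of 0.61 and that of Tm4sf5 (0.74) above it.

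The relatives of the 7 genes were counted in the same way at 8 h. In none of the 7 lists of relatives was a genotype difference called (limma), over 4 tested type II keratins, 12 axonemal dynein heavy chains, 8 SLC5 symporters, 2 SLC10 transporters, 1 L6 family member, 4 class C orphan receptors and 23 Ras and Ral exchange factors. At an unadjusted p under 0.05 these lists held 2, 1, 0, 0, 0, 2 and 4 genes, beside 1706 of all 16268, and the block called 0, 0, 0, 0, 0, 1 and 3. The median difference was 0.54 for the keratins and 0.48 for the class C receptors, against 0.01 over all genes, and between 0.02 and 0.22 for the other lists. In KO, the keratin gene Krt7 rose by 1.09 (adjusted p = 0.000141), the dynein gene Dnah11 by 0.67 (0.00485) and the receptor gene Gprc5c by 0.59 (0.0103). In WT, Krt75 fell by 1.01 (0.00665), Dnah5 fell by 0.96 (0.00349), Slc5a1 fell by 0.68 (0.000789) and Slc10a3 fell by 0.23 (0.0412). Of the 23 exchange factors, 4 rose and 2 fell in KO, and 2 rose and 7 fell in WT. Rgl3, an activator of Ral that is also on the RA list, rose most in both, by 3.27 in KO and 2.62 in WT.

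The nearest tested genes along the chromosome were described at 8 h. Utf1, a chromatin protein of undifferentiated germ cells that starts 2252 bp past the end of Kndc1, changed by 0.55 in KO at 8 h (limma adjusted p = 0.0534) and -0.07 in WT, and by 1.34 and -0.05 at 24 h. Zmynd15, a testis gene 39042 bp before Tm4sf5, rose by 0.64 in KO at 8 h (0.018), with 0.26 in WT. Slain2, next to Slc10a4, rose in KO by 0.90 (6.73e-13) and in WT by 0.59 (1.62e-08), and Fryl on its other side rose in KO by 0.40 (0.000462). Krt75 and Krt8, the nearest tested genes around Krt73, lie 219404 and 194368 bp away. The genotype difference at 8 h was called for none of these neighbours (lowest adjusted p 0.0982, for Slain2), nor for those of the other 3 genes.

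Marker genes of other cell types were compared beside the 8 h result. The summed log2 level of 14 epithelial and keratinocyte markers, the list nearest to Krt73, was 12.37 to 12.41 in KO with RA and 12.54 to 12.68 in KO with DMSO, and that of WT was 12.14 to 12.44 and 12.45 to 12.69. Most of that sum is Epcam (the authors' mean signal 5790, against 162 for the next gene, Krt18), which changed by -0.22 in KO (limma adjusted p = 0.0502). Of the 9 tested genes of the list none was called in KO, with a median change of 0.01, and 2 fell in WT. The 9 spermatid markers, the list nearest to Dnah17, stood at 6.53 to 6.82 in KO with RA and 6.55 to 6.77 with DMSO, and none of the 4 tested was called in KO or WT. The Sertoli list stood at 9.59 to 9.87 in KO with RA and 9.37 to 9.64 with DMSO, the Leydig list at 8.73 to 8.86 and 8.68 to 8.87, and the fibroblast list at 14.89 to 15.65 and 14.79 to 15.5. The macrophage list stood at 8.86 to 9.48 and 9.18 to 9.68, and the endothelial list at 9.87 to 10.25 and 9.77 to 10.32. The genotype difference was called for none of the tested genes of these 7 lists (limma, 1 gene with an unadjusted p under 0.05 and 2 with the block), and for 1 of 20 genes of undifferentiated spermatogonia, Nanos3 (0.79, adjusted p = 0.0183, and 0.455 with all 42 libraries). Of these 20 genes, 3 rose and 4 fell in KO, and 2 rose and 7 fell in WT. Of 18 genes of differentiating spermatogonia and meiosis, 3 rose and 1 fell in KO, 6 rose and 1 fell in WT, and Stra8 alone differed. At 24 h the summed level of the undifferentiated list was 15.18 to 15.22 in WT with RA and 15.96 to 16.02 with DMSO. In KO it was 15.97 to 16.07 and 15.98 to 16.01. That of the differentiating list was 16.17 to 16.38 and 15.61 to 15.73 in WT, and 16.02 to 16.07 and 15.65 to 15.72 in KO. The part of these marker shifts in the 8 h and 24 h values of the 7 genes was not tested.

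The authors' deposited table holds their own comparisons. In it 5 of the 7, Krt73, Kndc1, Dnah17, Tm4sf5 and Gpr179, passed an adjusted p of 0.05 for RA against DMSO at 8 h in KO, from Krt73 (log2 fold change 2.90, adjusted p 2.92e-24) to Gpr179 (1.60, 4.12e-07). For WT at 8 h the authors' deposited table lists Kndc1 (0.73, 0.0434) and Tm4sf5 (0.89, 0.014) under that threshold. The share of all genes that pass in the authors' KO and WT comparisons at 8 h was not counted, so these counts have no background here. The authors' test of the genotype difference at 8 h gives none of the 7, with adjusted p of 0.109 (Tm4sf5) to 0.972 (Slc10a4) and 0.422 for Krt73, where 113 of 14960 genes pass in the authors' deposited table.

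**Figure D4:**
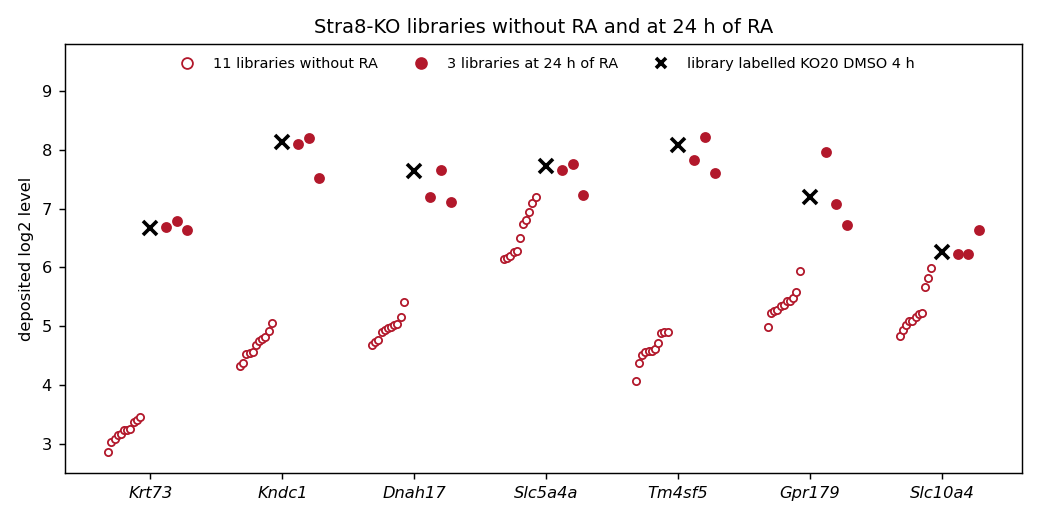
Deposited log2 level (vertical axis) of the 7 genes in the 11 KO libraries without RA that were used (open circles), in the 3 KO libraries at 24 h of RA (filled circles) and in the library labelled KO20 DMSO 4 h (cross). The cross lies above every open circle and within or near the filled circles, for Krt73 at 6.67 against 2.85 to 3.46.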

How the data were processed

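RNA was sequenced from 43 labelled samples, which fall on 42 columns of the table. Per the submitters' processing notes, reads were aligned with STAR 2.5.1b to GRCm38.p4 and analysed with DESeq, while the counting tool, and whether it used strand, were not given in those notes. The authors deposited log2 levels scaled between libraries, a mean signal per gene, and their own log2 fold changes and adjusted p-values. Depth is unknown. From the deposited log2 levels, limma 3.58.1 (R 4.3.3, trend and robust) was fitted with 1 mean for each of 14 groups over 39 libraries, to the 16268 genes at a level of 10 or more (log2 3.32) in at least 3 libraries. P-values were adjusted over all of them by Benjamini-Hochberg with a threshold of 0.05. Errors are SEs of the fit. Same-line libraries deviated together, by the correlation of their deviations from group means, with r of 0.292 to 0.724 at 8 h and 0.243 to 0.678 at 4 h, so the line numbers pair the samples at the times tested. At 24 h r was -0.0034 to 0.669, lowest in WT23. The fit with 1 mean per group does not use this pairing, while the alternative with the line as a block does. Alternatives were all 42 libraries, the line as a block, quantile normalization, other filters, limma without trend and robust, other 4 h controls and leaving out each line. The steps were tested on simulated data. The 7 genes, the lists and the tests were chosen with earlier results of these data known. Named genes are the 7, the 6 most correlated with their mean, Stra8, list members called at 8 h and chromosomal neighbours. Genes next to the 7 in the 24 h ranking, and Epcam and Krt18, were named after their values were seen. Promoter sequences are from RefSeq (GRCm38.p6). The result of 1 list gene called at 8 h is not reported here.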

Additional observations from a re-analysis of the deposited data

Results flagged for a closer look

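At 8 h the genotype difference in the RA change was called (limma) for Krt73 (KO minus WT 1.86, adjusted p = 4.56e-05). It was also called for Tm4sf5 (1.52, 0.0465) and Dnah17 (1.05, 0.0451). For all 3 genes the change of each of the 3 KO lines lay above that of each of the 3 WT lines. Of all tested genes, 0.443% were called higher in KO and 16% had this order of lines. With all 42 libraries none of the 3 was called, at the same size of difference and with a larger error. With the line as a block or the stricter filter all 3 were called. Tm4sf5 and Dnah17 were not called with quantile normalization, with no filter, without trend and robust or with the 8 h libraries alone. Leaving out 1 line at a time, Krt73 stayed called in 6 of 6 fits, Dnah17 in 1 of 6 and Tm4sf5 in 0 of 6.

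The library labelled KO20 DMSO 4 h, which entered no comparison above unless stated, held all 7 genes above the 11 KO libraries without RA that were used. Its log2 level was 6.67 for Krt73, 8.13 for Kndc1, 7.64 for Dnah17, 7.72 for Slc5a4a, 8.08 for Tm4sf5, 7.19 for Gpr179 and 6.25 for Slc10a4. The KO20 library at 24 h of RA had 6.79, 8.20, 7.65, 7.76, 8.22, 7.08 and 6.22 for the same genes. The authors' own column heading marks that the library tracks with KO cultures at 24 h of RA.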

How the results depend on the processing

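Of the 7 genes, the count with a called 8 h genotype difference (3) was 0 with all 42 libraries, 5 with the replicate block, 1 with quantile normalization, with no filter, without trend and robust and with the 8 h libraries alone (an alternative chosen after seeing the data), and 1 to 2 with a line left out. For RA in KO at 8 h (5) it was 3 with all 42 libraries. In WT at 8 h the count called higher (0) was 2 with the block, 1 with quantile normalization and with the stricter filter, and 0 to 1 with a line left out, and the count called lower (0) was 1 with the block. At 4 h in KO (3) it was 0 with all 42 libraries and with all DMSO 4 h libraries as control, which also turned Krt73 to -0.52, Kndc1 to -0.20 and Tm4sf5 to -0.14, and 0 to 3 with a line left out. At 4 h in WT (1) it was 3 with the block, 0 with all 42 libraries, with no filter and with either DMSO 4 h control, and 0 to 2 with a line left out.

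Over all genes, the 8 h difference (74 called) gave 1 with all 42 libraries, 620 with the block, 46 with quantile normalization, 13 with the 8 h libraries alone and 12 to 42 with a line left out. RA in KO at 8 h (1067) gave 523, 1950 with the block and 569 to 1261. RA in WT at 8 h (1957) gave 834, 3443 with the block, 1258 with the 8 h libraries alone and 853 to 1857. RA at 4 h gave 1366, 5021 with the block, 449 and 75 with the DMSO 4 h controls and 1315 to 3592 in KO (3009), and 1794, 5555, 230 and 489, and 1952 to 3602 in WT (3630). The 4 h difference (1) gave 0 with all 42 libraries, and untreated KO against WT (2) gave 0 with all 42, 14 with no filter and 0 to 7 with a line left out. The RA response genes and relatives called for the 8 h difference (2) gave 0 with all 42 libraries and 8 with the block. The median 24 h difference of the 7 genes (2.62) was 2.57 with quantile normalization and 2.45 to 2.64 with a line left out. The block, which the untreated comparison cannot have, changed no call of the 7 genes beyond those given. With 3 lines a genotype and unknown depth, small differences may go undetected.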
